A study of Rattus norvegicus with 6 samples.

Results

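The 10 genes described here encode the proteins that build and handle coenzyme Q in mitochondria: Coq2, Coq3, Coq4, Coq5, Coq6, Coq7, Coq8a, Coq9, Coq10a and Coq10b. They were taken as a gene family, by their symbols in the deposited table, and no measured value enters that rule. All 10 were found among the 32623 genes of the table, and all 10 passed the filter on low values that left 13964 genes for testing. Coenzyme Q, or ubiquinone, is a lipid that carries electrons in the inner mitochondrial membrane from complexes I and II and from several dehydrogenases to complex III. Its long isoprenoid tail comes from the mevalonate pathway, its ring is derived from tyrosine, and the ring is modified by enzymes that assemble into a complex on the matrix side of the membrane. The heart is among the tissues richest in coenzyme Q, and inherited defects of its synthesis can affect the heart, muscle, brain and kidney.

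Myocardial tissue of 6 wild-type (WT) male rats was profiled by RNA sequencing. The 3 sham rats are labelled as sham at 30 min, and the 3 ischemia rats had the left anterior descending coronary artery ligated for 30 min. Age and strain are not given in the labels, and no other allele or agent is named. The labels give neither the sampled region of the heart nor whether tissue was pooled, so p-values measure the spread between these 6 samples. The study reported that Hsp27 knockdown lowered COQ9 protein, but not its mRNA, in cultured cardiomyocytes after hypoxia and reoxygenation. The comparison here asks how the transcripts of Coq9 and of the genes it works with stood in ischemic tissue. It covers RNA of tissue at 30 min, with no reoxygenation and no protein measured.

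The libraries held 68529126 to 79591989 counts each, and differed in ways the group labels do not give. Cardiomyocyte marker genes were abundant in all 6 libraries, with a summed level of 33411 to 51565 FPKM (fragments scaled by gene length and library size) in sham and 18103 to 33282 FPKM in ischemia. The sum hides single genes that differed between sham samples. Myl3 stood at 796.0, 9024 and 1021 FPKM in sham replicates 1 to 3 and at 5691, 3180 and 5780 FPKM in ischemia replicates 1 to 3. Myl2 stood at 366.0, 2795 and 346.4 FPKM in sham and at 1315, 594.2 and 1238 FPKM in ischemia. The 7 atrial genes summed to 48740 and 39684 FPKM in sham replicates 1 and 3 but to 264.0 FPKM in sham replicate 2, against 1295 to 9685 FPKM in ischemia. The atrial light chain Myl7 stood at 6530, 116.9 and 3541 FPKM in sham replicates 1 to 3 and at 764.4, 10.004 and 12.3 FPKM in ischemia replicates 1 to 3. Neutrophil and monocyte genes (16 of 18 found) summed to 122.7 to 212.7 FPKM in sham and to 1328, 9034 and 2096 FPKM in ischemia replicates 1 to 3, and 13 of the 16 tested genes rose (edgeR, adjusted p under 0.05). Retnlg, a neutrophil granule gene, was listed at 0 in all 3 sham samples, while S100a8, S100a9 and Cxcr2 were above 0 in all 6 samples. In whole tissue, fewer cells of a type and less RNA per cell cannot be told apart.

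None of the 10 members passed the adjusted threshold in edgeR, the main test. Still, 8 of the 10 had a lower mean in ischemia, and Coq10b had a mean about 3 times higher. When libraries were scaled to cardiomyocyte genes 2 of 10 were lower, but the median log2 fold change of all tested genes then stood at 1.21. Without that scaling, the lower means included the prenyltransferase Coq2 and all the genes of ring modification but Coq4. The others were the kinase-like Coq8a, the lipid-binding Coq9 and Coq10a. With edgeR's quasi-likelihood test and Benjamini-Hochberg adjustment over all tested genes, 0 members were higher and 0 lower, where 5.18% of all genes were called higher and 1.53% lower. At an unadjusted p under 0.05, 1 member was higher (Coq10b) and 1 lower (Coq10a), against 18.2% and 14.2% of all genes. DESeq2 called the same 2 genes in the same directions, 1 higher against 14.9% of all genes and 1 lower against 12.6%. Limma called 0 members, where it called 7.96% of all genes in either direction, and gave 4 members an unadjusted p under 0.05, where 31.7% of all genes had one. FPKM of the groups did not overlap for 1 member that was higher and 2 that were lower, where 23.6% and 15% of all genes were that way. The members' shares were near these backgrounds. The median log2 fold change of the members was -0.72, beside -0.0015 over all tested genes, of which 50.1% were below 0.

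**Figure D1:**
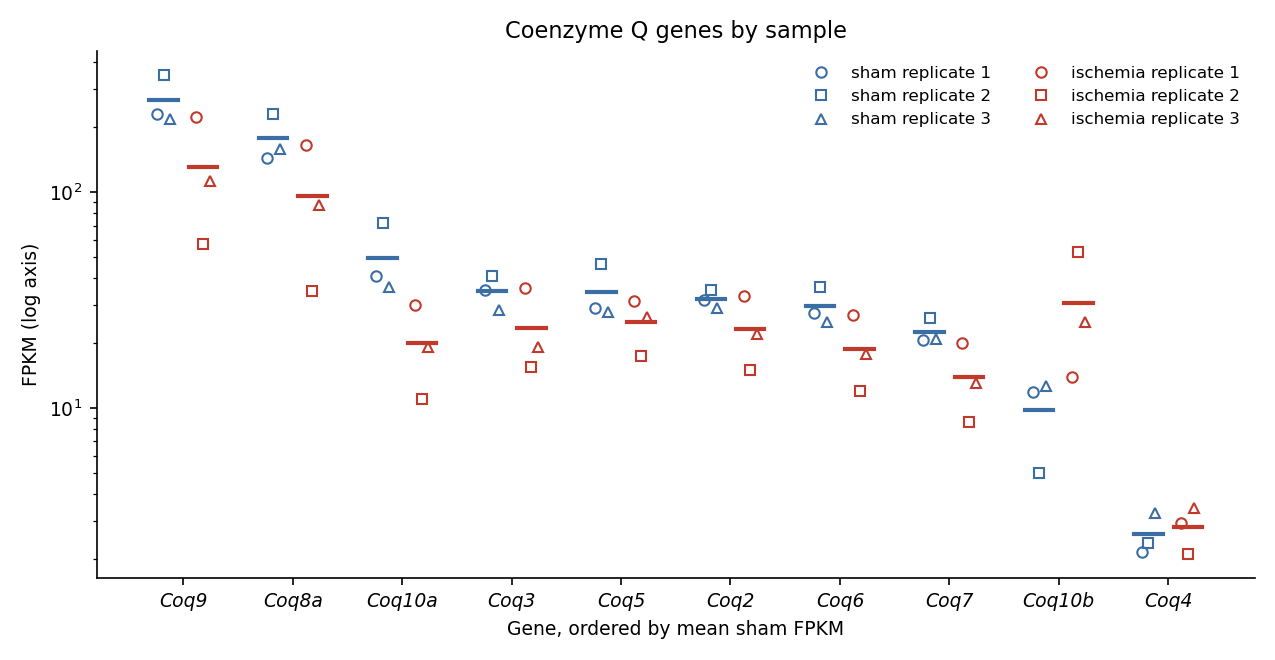
FPKM (log axis) of the 10 coenzyme Q genes in each of the 6 samples, with blue for sham, red for ischemia, a marker shape per replicate and a bar at the group mean. Ischemia replicates 2 and 3 lie below all 3 sham samples for 8 genes, ischemia replicate 1 lies inside the sham range for 7, and Coq10b runs the other way.

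The level of the genes spanned about 2 orders of magnitude in sham. Coq9 and Coq8a were the most abundant, with means of 266.6 ± 72.9 and 177.8 ± 46.7 FPKM (SD, n = 3), and together they made up 65.3 to 68.8% of the summed FPKM of the 10 genes. Coq10a followed at 49.7 ± 19.4 FPKM, and Coq3, Coq5, Coq2, Coq6 and Coq7 ran from 35.0 down to 22.6 FPKM. The ranges of neighbours in this order overlapped except at 3 steps, from Coq8a to Coq10a, from Coq7 to Coq10b and from Coq10b to Coq4, the lowest at 2.59 ± 0.595 FPKM. In ischemia the order began with Coq9 and Coq8a again, but Coq10b was the third and Coq10a the seventh gene, and only the last step, from Coq7 to Coq4, was without overlap.

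The spread within ischemia was wide and had the same shape for most members. Ischemia replicate 2 was the lowest of all 6 samples for 9 members, and sham replicate 2 was the highest for 8. Ischemia replicate 1 lay inside the sham range for 7 members (Coq2, Coq3, Coq4, Coq5, Coq6, Coq8a and Coq9). Without ischemia replicate 1, which had the smallest neutrophil and monocyte sum of the group, 8 of the 10 members had an unadjusted p under 0.05 in edgeR, where 39.6% of all genes had, and the members' median log2 fold change was -1.13. Without ischemia replicate 2 the count was 0 of 10, where 26.3% of all genes had such a p, and the median was -0.45. Without sham replicate 2 it was also 0 of 10, where 27.2% of all genes had, with a median of -0.43. The fit without ischemia replicate 1 called 1 member higher, Coq10b at 1.89 with an edgeR adjusted p of 0.0356, where 10.7% of all genes were. Coq10b was not called without ischemia replicate 2 (1.01, edgeR adjusted p = 0.192) or without sham replicate 2 (1.30, 0.198). The fit without sham replicate 2 called 0 of all tested genes. With the atrial genes as a covariate in edgeR, which called 0 of all 13964 genes (2229 at an unadjusted p under 0.05), the members' median was -0.78, Coq9 stood at -1.13 and Coq10b at 1.59. The part of the neutrophil and monocyte content in these values was not tested.

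Coq9 is a lipid-binding protein that presents the substrate to the hydroxylase Coq7. It measured 230.8, 350.5 and 218.4 FPKM in sham replicates 1 to 3 and 222.5, 57.3 and 113.2 FPKM in ischemia replicates 1 to 3. The first ischemia value lay just inside the sham range and the other two far below it, so the groups overlapped. The log2 fold change was -1.13 ± 0.56 (SE; edgeR adjusted p = 0.208), and a two-sided exact permutation test of mean FPKM gave p = 0.2, where 3 samples against 3 cannot go below 0.1. Leaving out 1 sample moved the log2 fold change between -0.74 without sham replicate 2 and -1.76 without ischemia replicate 1 (edgeR adjusted p = 0.453 and 0.0675). The gene (ENSRNOG00000016190) lies on the minus strand at chr19:10583857-10596851 as the file gives it, in a build not stated in the sources used here.

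Coq10b encodes a START-domain protein that binds coenzyme Q and is needed for its function in respiration rather than for its synthesis, and Coq10a is its paralog. Coq10b measured 11.9, 4.997 and 12.6 FPKM in sham replicates 1 to 3 and 13.9, 52.8 and 25.1 FPKM in ischemia replicates 1 to 3. All ischemia samples lay above all sham samples, with replicate 1 only slightly so. The fitted fold was 2.96, a log2 fold change of 1.57 ± 0.50, which missed the threshold with edgeR (adjusted p = 0.0980) and limma (0.115) and passed it with DESeq2 (0.0175). The gene (ENSRNOG00000014456) is on the plus strand at chr9:61655963-61675873, and an antisense gene with 0 to 22 counts overlaps it by 71 bases.

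Coq9 was lowest and Coq10b highest in ischemia replicate 2, and the reverse held in sham replicate 2. To set the genes side by side, sequence upstream of their RefSeq start sites is shown, 5′ to 3′ on the gene's strand in the GRCr8 build, at chr19:10185961-10186186 (minus strand, 226 bases) and chr9:64047918-64048167 (plus strand, 250 bases). The Coq10b stretch ends at its start site, and the 24 bases next to the Coq9 start site are left out because RefSeq places them inside the gene. Capitals mark CCAAT, read on either strand, the letters of a common promoter element bound by the factor NF-Y.
Coq9: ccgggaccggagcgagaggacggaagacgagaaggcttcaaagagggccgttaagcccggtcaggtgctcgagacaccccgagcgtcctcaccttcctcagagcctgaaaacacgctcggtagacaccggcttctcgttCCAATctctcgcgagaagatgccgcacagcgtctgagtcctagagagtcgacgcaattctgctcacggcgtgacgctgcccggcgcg
Coq10b: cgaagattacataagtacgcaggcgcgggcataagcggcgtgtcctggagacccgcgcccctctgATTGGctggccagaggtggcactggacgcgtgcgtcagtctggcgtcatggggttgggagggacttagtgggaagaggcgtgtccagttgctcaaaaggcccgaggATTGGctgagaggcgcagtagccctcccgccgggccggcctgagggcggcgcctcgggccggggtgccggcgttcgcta
The Coq9 stretch held CCAAT once and the Coq10b stretch held it in 2 places, on the opposite strand (ATTGG). RefSeq windows were matched for 8 of the 10 genes (not Coq2 and Coq4). In the 250 bases before the start, CCAAT occurred in 5 of these 8 (Coq6, Coq7, Coq9, Coq10a and Coq10b) and in 34% of all 33469 promoters, so the letters were shared by members that differed in direction. The ETS letters CCGGAAG occurred in 1 member (Coq6) and 7.27% of all promoters. The letters searched for NRF1 (4.8% of all promoters), CRE (TGACGTCA, 1.59%), estrogen-related receptors (TNAAGGTCA, 1.04%), the E-box (CACGTG, 5.59%) and heat shock factor (0.663%) were in none of the 8 windows. These motifs were chosen after the values were seen, and both strands were read.

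Coq10a ran opposite to Coq10b in every sample. It measured 40.7, 71.9 and 36.4 FPKM in sham replicates 1 to 3 and 30.1, 10.99 and 19.2 FPKM in ischemia replicates 1 to 3. The groups did not overlap, and ordering the 6 samples by Coq10a gave the exact reverse of their order by Coq10b. The log2 fold change was -1.43 ± 0.51, 2.70-fold lower in ischemia, with an adjusted p of 0.119 in edgeR, 0.0865 in limma and 0.0310 in DESeq2. It ranged from -1.85 without ischemia replicate 1 to -0.91 without sham replicate 2 (edgeR adjusted p = 0.0658 and 0.267). Summed neutrophil and monocyte FPKM gave the same order of samples as Coq10b, and its part was not tested.

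The ratio of the paralogs needs no scaling between libraries. Coq10b made up 22.6, 6.50 and 25.7% of the FPKM of both genes in the 3 sham samples (replicates 1 to 3), as against 31.6, 82.8 and 56.7% in the ischemic ones. Coq10b was thus the minor paralog in every sham sample and in ischemia replicate 1, and the major one in ischemia replicates 2 and 3. The log2 ratio of Coq10b to Coq10a averaged -2.38 ± 1.27 in sham and 0.51 ± 1.69 in ischemia (SD, n = 3). The difference of 2.90 had p = 0.1 in a two-sided exact permutation test, the smallest this design allows, and it ranged from 2.02 to 3.71 as each sample was left out. Over the 6 samples Pearson's r between the paralogs on the log2 scale was -0.995, given as a description of points that share libraries.

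**Figure D2:**
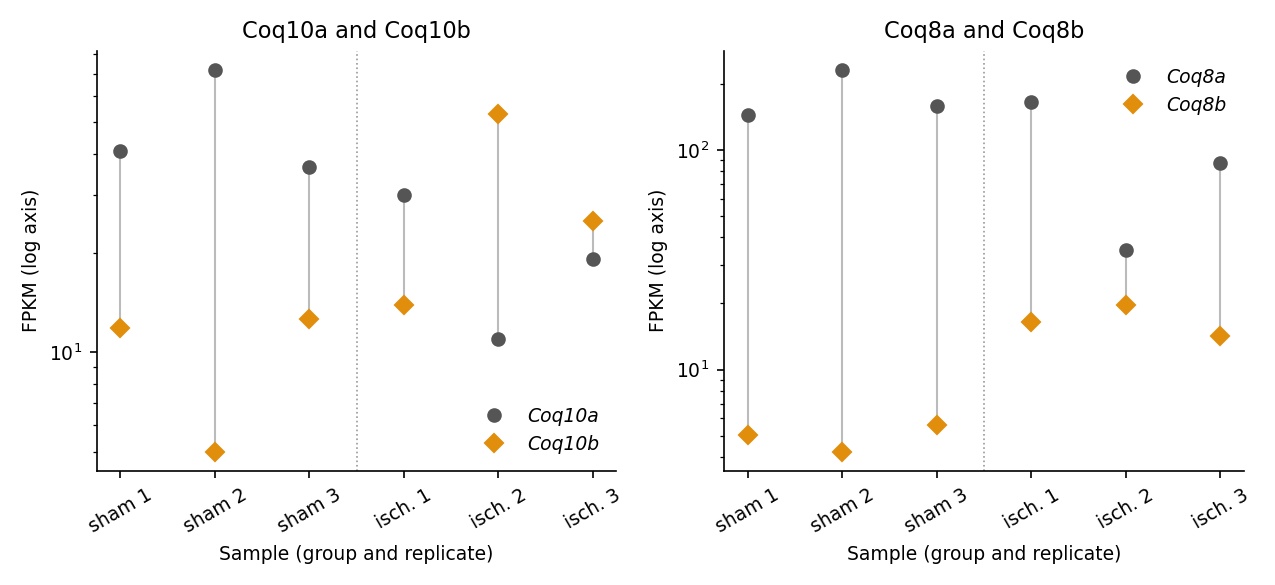
FPKM (log axis) of Coq10a and Coq10b (left) and of Coq8a and Coq8b (right) in each sample, joined by a line, with sham left and ischemia right of the dotted line. Coq10b exceeds Coq10a in ischemia replicates 2 and 3, where it makes up 82.8 and 56.7% of both, while Coq8b stays below Coq8a throughout.

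The synthesis enzymes begin with Coq2, the prenyltransferase that joins the isoprenoid tail to the ring. Coq2 (chr14:10581136-10600566) measured 31.7, 35.4 and 29.0 FPKM in sham replicates 1 to 3 and 33.0, 15.0 and 21.9 FPKM in ischemia replicates 1 to 3, with a log2 fold change of -0.55 ± 0.35 (edgeR adjusted p = 0.304). That value was -0.90 without ischemia replicate 1 and -0.28 without ischemia replicate 2. Pdss1 and Pdss2, the subunits of the enzyme that makes the tail, are not among the 10 members. Pdss2 had a log2 fold change of -0.70 (edgeR adjusted p = 0.265) and Pdss1 of 0.02 (0.974), so the subunits' values lay on different sides of Coq2's.

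The ring methyltransferases Coq3 and Coq5 and the ring hydroxylases Coq6 and Coq7 had log2 fold changes of -0.58 to -0.80. Coq3 (chr5:36024649-36056669), which methylates the ring's oxygens, measured 35.3, 41.1 and 28.6 FPKM in sham replicates 1 to 3 and 36.0, 15.5 and 19.1 FPKM in ischemia replicates 1 to 3 (log2 fold change -0.68 ± 0.40, edgeR adjusted p = 0.270). Coq5 (chr12:47078753-47095438), the methyltransferase that acts on a ring carbon, measured 29.1, 46.2 and 27.8 FPKM in sham and 31.3, 17.4 and 26.3 FPKM in ischemia (-0.58 ± 0.38, edgeR adjusted p = 0.323). In both genes ischemia replicate 1 lay inside the sham range and replicate 2 was the lowest value. As single samples were left out, the log2 fold change ran from -1.14 to -0.42 for Coq3 and from -0.78 to -0.16 for Coq5, with the first value without ischemia replicate 1 and the second without sham replicate 2.

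Coq6 (chr6:108076306-108087696), a flavin-dependent hydroxylase, measured 27.4, 36.2 and 25.0 FPKM in sham and 26.9, 11.9 and 17.7 FPKM in ischemia (-0.75 ± 0.39, edgeR adjusted p = 0.224), with -1.11 without ischemia replicate 1 and -0.44 without sham replicate 2. Entpd5 overlaps it on the opposite strand by 279 bases, at 863 to 3026 counts, and whether the counting used strand is not given in the sources used here. Coq7 (chr1:188174874-188190860), the di-iron hydroxylase that Coq9 serves, measured 20.6, 26.2 and 20.9 FPKM in sham replicates 1 to 3 and 19.9, 8.64 and 12.99 FPKM in ischemia replicates 1 to 3. Coq7 was the one synthesis enzyme whose groups did not overlap, but replicate 1 fell short of the lowest sham value by less than 1 FPKM. Its log2 fold change was -0.80 ± 0.37 (edgeR adjusted p = 0.187), and its exact permutation p was 0.1, two-sided. It was -1.17 without ischemia replicate 1 and -0.52 without ischemia replicate 2.

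Coq4 (chr3:8349185-8357871), which acts on the ring's carboxyl group and has a scaffold role in the complex, differed from the other enzymes. It measured 2.14, 2.37 and 3.27 FPKM in sham replicates 1 to 3 and 2.92, 2.10 and 3.43 FPKM in ischemia replicates 1 to 3, at 249 to 384 counts. The log2 fold change was 0.05 ± 0.34 (edgeR adjusted p = 0.930), and its sign turned when single samples were left out (-0.16 to 0.26). RefSeq lists a Coq4 pseudogene in the rat, so the value is uncertain where reads match both.

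Coq8a (chr13:98451637-98480419), an atypical kinase-like ATPase that supports the complex, measured 143.5, 231.0 and 158.8 FPKM in sham replicates 1 to 3 and 165.5, 34.9 and 87.3 FPKM in ischemia replicates 1 to 3, and the groups overlapped. The log2 fold change was -0.99 ± 0.60 (edgeR adjusted p = 0.286), between -1.64 without ischemia replicate 1 and -0.58 without ischemia replicate 2. Its paralog Coq8b, not among the 10 members, measured 5.06, 4.24 and 5.57 FPKM in sham and 16.6, 19.7 and 14.3 FPKM in ischemia replicates 1 to 3. Every ischemia value of Coq8b was above every sham value, ischemia replicate 1 included, and Coq8b rose by a fold of 3.20, a log2 fold change of 1.68 ± 0.17 (edgeR adjusted p = 0.0246; limma 0.0165; DESeq2 1.72e-21). The value lay between 1.58 and 2.91 in all 20 alternatives, but the call was lost in 8. These included leaving out sham replicate 1, 2 or 3 (edgeR adjusted p = 0.157, 0.0828 and 0.125) or ischemia replicate 3 (0.111), and the atrial covariate (0.183). Each of the fits just named called 0 of all tested genes, so a lost call there is not particular to Coq8b. The share of Coq8b in the FPKM of both paralogs by replicate was 3.41, 1.80 and 3.39% for sham, as against 9.09, 36.1 and 14.1% for ischemia. Coq8b at chr1:84044551-84067066 thus remained the lower of the pair in all 6 samples.

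Coq2 to Coq9 were set beside genes of the same organelle and cell type. The mean log2 FPKM of Coq2 to Coq9 minus that of 27 oxidative phosphorylation genes by replicate was -3.87, -4.10 and -3.84 for sham, as against -4.03, -4.22 and -4.21 for ischemia. The groups overlapped and the difference of the means was -0.22. Against the cardiomyocyte list the sham values were -5.44, -5.62 and -5.32, as against -5.23, -5.53 and -5.84 for ischemia, with a difference of -0.073. Taken by themselves, the mean log2 levels differed between ischemia and sham by -0.67 for Coq2 to Coq9, by -0.45 for the oxidative phosphorylation genes and by -0.59 for the cardiomyocyte genes.

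The scaling chosen sets the sign of most members. With library size set to the summed oxidative phosphorylation counts, the median of all tested genes shifted to 0.57 and that of the members was -0.23. With the cardiomyocyte counts the median of all genes shifted to 1.21 and 8 of the 10 members were above 0, with a median of 0.41. This sum leans on the genes with most counts. In sham these were Myh6 and Actc1, at log2 fold changes of -2.38 and -1.70 in the main fit. The list's median was -0.59, with 11 of its 13 genes below 0 and 2 above. The part of single genes in the shift was not tested. Relative to the median of all genes the members' median was -0.71, -0.81 and -0.80 under the 3 scalings. Coq9 and Coq10a stayed below 0 under the cardiomyocyte scaling, at -0.07 and -0.29, and Coq10b stood at 2.90 with an edgeR adjusted p of 0.0364, where 25.6% of all genes were called higher.

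**Figure D3:**
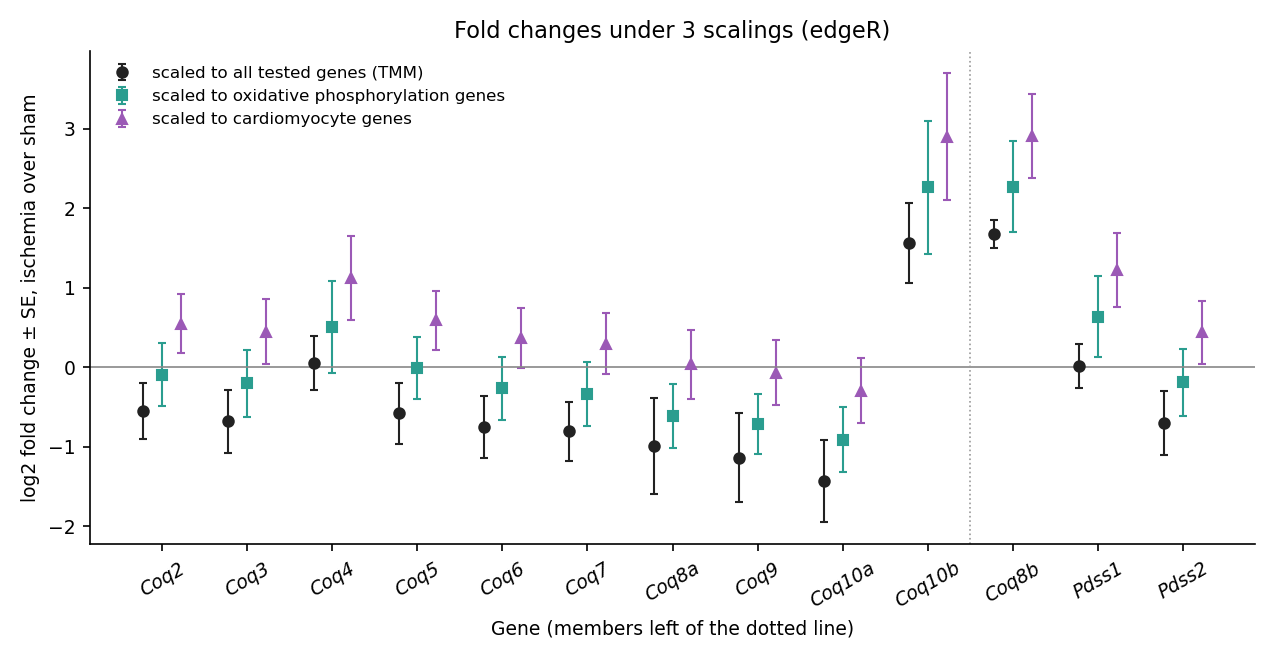
Log2 fold change of ischemia over sham (± SE, edgeR) for the 10 members and for Coq8b, Pdss1 and Pdss2 under 3 scalings of library size. Coq10b and Coq8b stay above 0 in each, Coq9 and Coq10a stay below 0, and Coq2, Coq3, Coq5, Coq6, Coq7 and Coq8a are below 0 with all tested genes and above 0 with cardiomyocyte genes. With cardiomyocyte genes the median of all tested genes was 1.21.

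Genes that supply, use and regulate coenzyme Q were counted in the same fit. Of the 5 tested genes for the side chain, the head group and the Coq8b kinase, 1 rose (Coq8b) and 0 fell, with a median log2 fold change of 0.02. Tat was listed at 0 in all 6 samples. Of 11 mevalonate pathway genes, which make the precursor of the tail, 0 rose and 0 fell in edgeR and the median was -0.16. Their extremes were Idi1 (isopentenyl diphosphate isomerase) at 1.37 ± 0.58 (edgeR adjusted p = 0.159) and mevalonate kinase Mvk at -0.94 ± 0.25 (0.0705). Without ischemia replicate 2 Idi1 was at 0.77. Mvk measured 7.26, 6.63 and 10.3 FPKM in sham and 5.09, 4.05 and 4.12 FPKM in ischemia, without overlap. At an unadjusted p under 0.05 the list had 1 higher and 2 lower, and DESeq2 called 1 higher and 2 lower.

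The enzymes that pass electrons to coenzyme Q showed no call either. Of 12 tested genes, 0 rose and 0 fell in edgeR and in DESeq2, 1 was higher and 1 lower at an unadjusted p under 0.05, and 9 were below 0 (median -0.58). The electron transfer flavoprotein genes Etfa and Etfdh stood at -0.64 ± 0.33 (edgeR adjusted p = 0.217) and -0.76 ± 0.49 (0.309). The extremes were Aifm2, a reductase of coenzyme Q outside mitochondria also known as FSP1, at -1.04 ± 0.46 (edgeR adjusted p = 0.172) and Dhodh, of pyrimidine synthesis, at 0.98 ± 0.38 (0.134). Dhodh measured 1.77, 2.03 and 2.47 FPKM in sham and 3.53, 7.26 and 2.70 FPKM in ischemia, without overlap. Aifm2 was at -0.61 without sham replicate 3, and Dhodh at 0.54 without ischemia replicate 2. All 27 oxidative phosphorylation genes were below 0 (median -0.49), from Ndufs1 at -0.98 to Cox5b at -0.29, although both stood above 0 under the cardiomyocyte scaling (0.13 and 0.86). The list had 0 called in edgeR and DESeq2 and 1 lower at an unadjusted p under 0.05. Ndufb5 stood at -0.49 (edgeR adjusted p = 0.453). Among 11 genes that regulate or transport coenzyme Q, 0 passed in edgeR, DESeq2 or at an unadjusted p under 0.05, with extremes of -0.73 for the phosphatase Pptc7 and 0.73 for the protease Yme1l1. Pptc7 was at -0.29 without sham replicate 2, and Yme1l1 at -0.12 without ischemia replicate 2.

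Of 9 biogenesis factors, 1 fell and 0 rose. Esrrg, an estrogen-related receptor that drives mitochondrial genes, measured 5.66, 4.14 and 3.96 FPKM in sham and 2.42, 1.58 and 1.89 FPKM in ischemia, without overlap (log2 fold change -1.30 ± 0.27, edgeR adjusted p = 0.0445). The call was lost in 15 of its 19 alternatives, limma (adjusted p = 0.0512) and the removal of any 1 sample but ischemia replicate 1 (edgeR adjusted p from 0.0658 to 0.167) included. Among these, the fits without ischemia replicate 3 or without sham replicate 1, 2 or 3 called 0 of all tested genes. The lowest value, Ppargc1b at -1.76 ± 0.46 (edgeR adjusted p = 0.0655), and the highest, Tfam at 0.51 ± 0.14 (0.0753), missed the threshold, and Ppargc1b was at -1.17 without sham replicate 2. The list's median was -0.40, and DESeq2 called 1 higher and 4 lower.

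**Figure D4:**
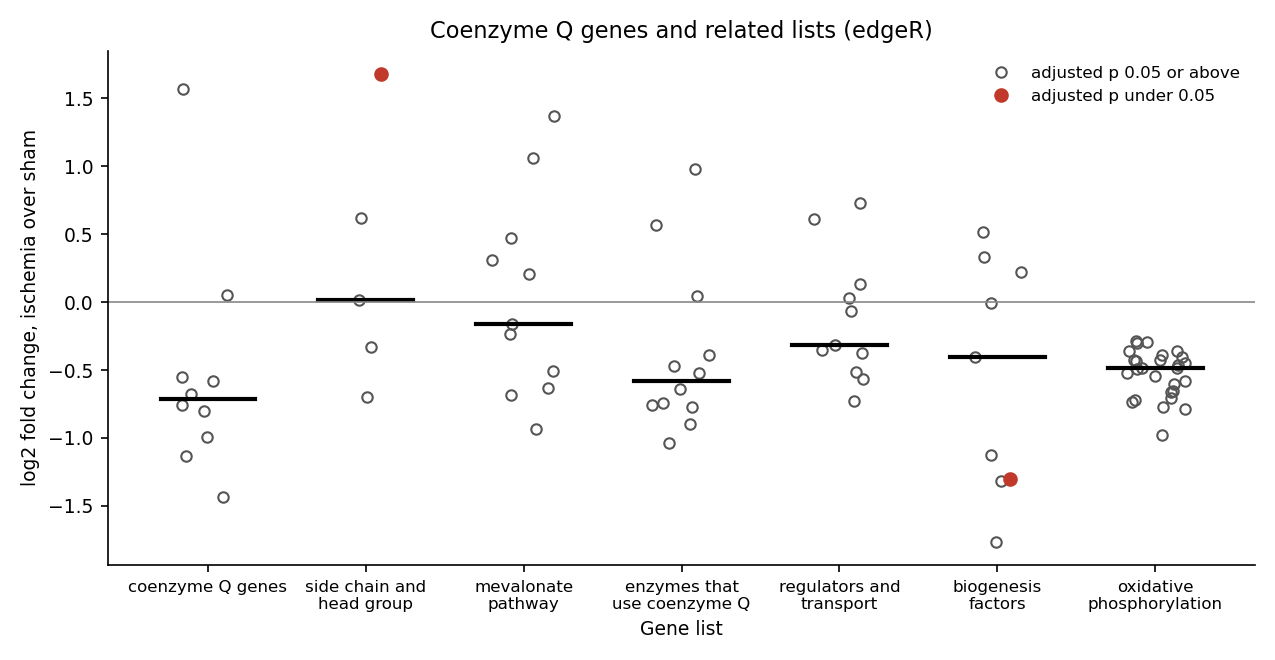
Log2 fold change of ischemia over sham (edgeR) for each tested gene of 7 lists, with a bar at each list's median and filled red points for an adjusted p under 0.05. The members' median is -0.72 with no gene called, and Coq8b (side chain and head group) and Esrrg (biogenesis factors) are the filled points.

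Patterns most like those of Coq9 and Coq10b were sought among 13964 genes by Pearson's r on log2 FPKM over the 6 samples, as a description of values that share libraries. Closest to Coq9 were Tmem50b, Aldh1a1, Nipsnap2, Dglucy and Cited4, with r from 0.998 to 0.999. Closest to Coq10b were Wdr75, Dhx15, Gnb1, Ufm1 and Btaf1, with r from 0.998 to 0.999. The members among themselves ran alike: Coq9 had an r of 0.927 to 0.998 with each of Coq2, Coq3, Coq5, Coq6, Coq7, Coq8a and Coq10a, of 0.109 with Coq4 and of -0.978 with Coq10b.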

How the data were processed

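Total RNA of rat myocardium (Trizol, TruSeq Stranded Total RNA kit) was sequenced in 3 sham and 3 ischemia samples, grouped by their GEO titles. The raw counts per gene deposited by the authors were whole numbers without normalization. The FPKM values deposited by the authors had been scaled by gene length and library size, with genes without reads set to 0.0001. STAR and HTSeq are named in the submitters' processing notes, and their versions and the genome build are not given in the sources used here. How reads of gene copies and overlapping genes were counted affects such genes.

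Genes whose FPKM averaged 0.5 or more had their counts tested with edgeR's quasi-likelihood test (TMM scaling, no covariates), two-sided, with Benjamini-Hochberg adjustment over all 13964 genes and a threshold of 0.05. A value with ± is a mean with SD or a log2 fold change with SE. Single values were compared with exact permutation tests. Alternatives were limma on log2(FPKM + 0.1) and with pseudocounts of 0.01 and 1, DESeq2, other filters and scalings, the replicate number as a block, an atrial covariate and each sample left out. A fit with sham replicate 2 as the only sham sample was added after seeing the data. At these depths 3 counts correspond to 0.0377 to 0.0438 CPM, which covers counting error only. The fit was tested on simulated counts in which 200 of 13964 genes were changed by a log2 of 2. It called 71 genes, 1 of them falsely, and recovered 35% of the changed genes. A change of that size is thus missed more often than called.

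The member rule uses gene symbols only, but the family was proposed, and the gene lists were written, with earlier results of these data known. All members were named. Of each list, genes past the threshold, the extremes, Etfdh, Etfa, Ndufs1, Ndufb5, Coq8b, Pdss1 and Pdss2 were named, with the 5 genes most like Coq9 and the 5 most like Coq10b. Among them placeholder names were passed over. The vitamin K genes and Adck genes were chosen after their values were seen. Promoter sequences came from RefSeq (GRCr8). Lists of fibroblast (6 tested genes, median log2 fold change -0.73), endothelial (5, -0.07) and erythroid genes (4, 0.10) had 0 calls in edgeR, and DESeq2 called 1 fibroblast gene higher and 2 lower. Cardiomyocyte genes had a median of -0.59 and atrial genes of -3.54, with 0 calls each in edgeR; DESeq2 called 1 cardiomyocyte gene higher and 4 lower and 2 atrial genes lower, and limma called 2 cardiomyocyte genes. Software versions were DESeq2 1.42.0, edgeR 4.0.16 and limma 3.58.1 under R 4.3.3, with Python 3.11.15 for the tables and matplotlib 3.10.9 for the plots.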

Additional observations from a re-analysis of the deposited data

How the results depend on the processing

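With 3 samples a group, a missed threshold does not show that a member did not differ. Coq4, the least abundant member, had 249 to 384 counts a sample. With DESeq2, 1 member was higher and 1 lower. With scaling to the cardiomyocyte list 1 member was higher, the members' median log2 fold change was 0.41, and the sign turned for Coq2 (0.55), Coq3 (0.45), Coq5 (0.59), Coq6 (0.37), Coq7 (0.30), Coq8a (0.037), Pdss2 (0.44), Etfa (0.52), Etfdh (0.39), Ndufs1 (0.13), Ndufb5 (0.66), Mvk (0.19), Pptc7 (0.51) and Cox5b (0.86), where the median of all genes was 1.21. With scaling to the oxidative phosphorylation list the median was -0.23 and Ndufb5 (0.053) and Cox5b (0.26) turned. With sham replicate 2 as the only sham sample, assumed to vary like the ischemia group, the median was -1.20 and Coq4 (-0.046) and Pdss1 (-0.35) turned. Pdss1 also turned with DESeq2 (-0.014), median-ratio (-0.014) and upper quartile scaling (-0.0086), a mean FPKM of at least 5 (-0.028) and the atrial covariate (-0.33). For these near-zero values the cause was not tested. Leaving out 1 sample at a time gave 0 to 1 member higher (1 without ischemia replicate 1), 0 to 0 lower, a median of -1.13 to -0.43, and ranges of -0.16 to 0.26 for Coq4, -0.19 to 0.22 for Pdss1, -0.12 to 1.09 for Yme1l1 and -0.50 to 0.11 for Cox5b. The Coq10b to Coq10a log2 ratio differed by 2.02 to 3.71. The fits without ischemia replicate 3 or without sham replicate 1, 2 or 3 called 0 of all tested genes. In the replicate block fit 0 genes passed, 0 members were higher or lower and the median was -0.76; Coq8b (1.67, edgeR adjusted p = 0.0943) and Esrrg (-1.31, 0.110) lost their calls. The ratio under the block differed by 2.90 with an exact permutation p of 0.25, the smallest for 3 pairs. Same-numbered samples come from different animals and their deviations correlated at -0.0561, -0.0940 and -0.196, so they share only a number. Coq4 was not tested at a mean FPKM of at least 5.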

Other observations

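Genes close to the members in kind but outside the lists were read in the same fit, after their values were seen. The kinase-like relatives of Coq8a and Coq8b showed no call: Adck1 had a log2 fold change of -0.69 (edgeR adjusted p = 0.223), Adck2 of -0.42 (0.331) and Adck5 of 0.27 (0.437). Coq8b was thus the one gene of these 5 past the threshold in edgeR.

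The genes that recycle another quinone, vitamin K, also held paralogs with values in opposite directions. Vkorc1, the vitamin K epoxide reductase that warfarin inhibits, measured 16.5, 9.33 and 19.5 FPKM in sham replicates 1 to 3 and 8.66, 3.86 and 4.65 FPKM in ischemia replicates 1 to 3. Its log2 fold change was -1.44 ± 0.38, with an adjusted p of 0.0679 in edgeR and 0.00387 in DESeq2. Its paralog Vkorc1l1 measured 0.449, 0.665 and 0.760 FPKM in sham and 1.03, 2.76 and 1.34 FPKM in ischemia, a log2 fold change of 1.32 ± 0.49 (edgeR adjusted p = 0.128; DESeq2 0.0708). In both genes the groups did not overlap, and neither passed the threshold in edgeR. The carboxylase Ggcx, which uses the reduced vitamin, stood at -0.52 ± 0.30 (edgeR adjusted p = 0.271).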
